A study of Homo sapiens with 3 samples.

Results

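Cholesterol and fatty acid synthesis genes were read in stratified cultures of the SV40-immortalized human corneal epithelial (iHCE) cell line, a line kept dividing by the viral large T antigen. The 30 genes form a list of pathway genes taken by name. Of these, 27 had at least 1 probe set annotated to that gene alone, 57 probe sets in all, out of 11963 genes and 22283 probe sets on the arrays. *FDFT1* (squalene synthase), *FADS1* (a fatty acid desaturase) and *ACSL3* (an acyl-CoA synthetase) had no probe set naming them alone and were not analysed here.

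The iHCE cells, at passages 22 to 23, were grown on collagen-coated filters in medium with fetal bovine serum, glutamine, insulin, cholera toxin, EGF, DMSO, penicillin and streptomycin, submerged for a week and then at an air-liquid interface with ascorbic acid. RNA came from 3 independent culture batches whose electrical resistance exceeded 300 Ω · cm2, at 489, 439 and 468 Ω · cm2 in cultures 1, 2 and 3, and each was hybridized to 1 Affymetrix HG-U133A array. All samples belong to this 1 group and this 1 cell line, so no condition was compared with another, and the corneal tissue arrays of the study were not analysed here.

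Animal cells build cholesterol from acetyl-CoA through mevalonate, isoprenoids, squalene and lanosterol, and build fatty acids from cytosolic acetyl-CoA through malonyl-CoA. Transcription factors of the SREBP family govern both routes: held in the endoplasmic reticulum by SCAP and INSIG proteins when sterols are plentiful, they are carried to the Golgi and cleaved when sterols run low. SREBP-2 mainly serves cholesterol genes and SREBP-1c mainly fatty acid genes, and the factor NF-Y, which binds CCAAT boxes, acts beside them at many of these promoters.

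The authors' RMA processing gave values on a log2 scale, and each error is an SD across cultures. To count as above background, a gene's brightest probe set had to exceed a threshold on each array. The threshold was the 95th percentile of a panel of 55 measured genes that mark retina, pancreas, testis, muscle and further tissues. These thresholds were 6.95, 7.00 and 6.76 in cultures 1, 2 and 3. Probe sets differ in affinity, so levels of different genes are not amounts that can be ranked against each other. With 3 arrays, means are of limited precision. Culture 1 stood somewhat apart over the whole array: it differed by 1 log2 unit or more from culture 2 at 185 probe sets and from culture 3 at 222, while cultures 2 and 3 differed so at 13. The added poly-A control transcripts were also lowest on its array, at 24 of 27 probe sets, with medians of 5.34, 6.59 and 6.63 in cultures 1, 2 and 3, all below the thresholds. Of 7 measured markers listed for corneal epithelium, 0 were above background on all arrays. They were *KRT3* (4.86 ± 0.10, SD, n = 3), *KRT12* (5.26 ± 0.16), *KRT5*, *KRT14*, *PAX6*, *ALDH3A1* and *CLU*. *PAX6* passed on 2 of 3 arrays, at 7.11, 6.55 and 6.83 in cultures 1, 2 and 3. All 6 of 6 other epithelial markers were above background, *EPCAM* (10.67 ± 0.14), *CDH1* (11.02 ± 0.08), *KRT18* (12.58 ± 0.20), *KRT7*, *KRT8* and *KRT19*. The paper links *KRT5* and *KRT14* to stratified epithelia and *KRT7* and *KRT18* to simple epithelia.

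Most of the synthesis genes were above background in the iHCE cultures. Of the 27 measured genes, 21 were above background on all 3 arrays (77.8%), against 47.8% of all measured genes. This excess depended on the threshold: with the highest panel value as the threshold, 4 genes were above it (14.8%), against 14.7% of all genes. The 13 measured sterol enzymes contributed 11, the 4 regulators 3, the 7 genes of fatty acid synthesis and desaturation 5, and the 3 genes of acyl-CoA activation and glycerolipid synthesis 2. The 6 genes not above background were *PMVK*, *MVD*, *SREBF1*, *ACACB*, *FADS2* and *ACSL4*. The median margin over the thresholds was 1.27 log2 units for the 27 genes and 0.07 for all genes. Synthesis genes had more probe sets each (2.11 on average, against 1.59 for all genes), which favours a call from the brightest of them. Counted by probe set, 34 of 57 were above background (59.6%), against 39% of all probe sets that name 1 gene. A moderated one-sided limma test of the mean over the thresholds, adjusted over all probe sets, called 20 of the 27 genes (74.1%, against 46.4% of all genes). These were all but *LPIN1* of the same 21.

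**Figure D1:**
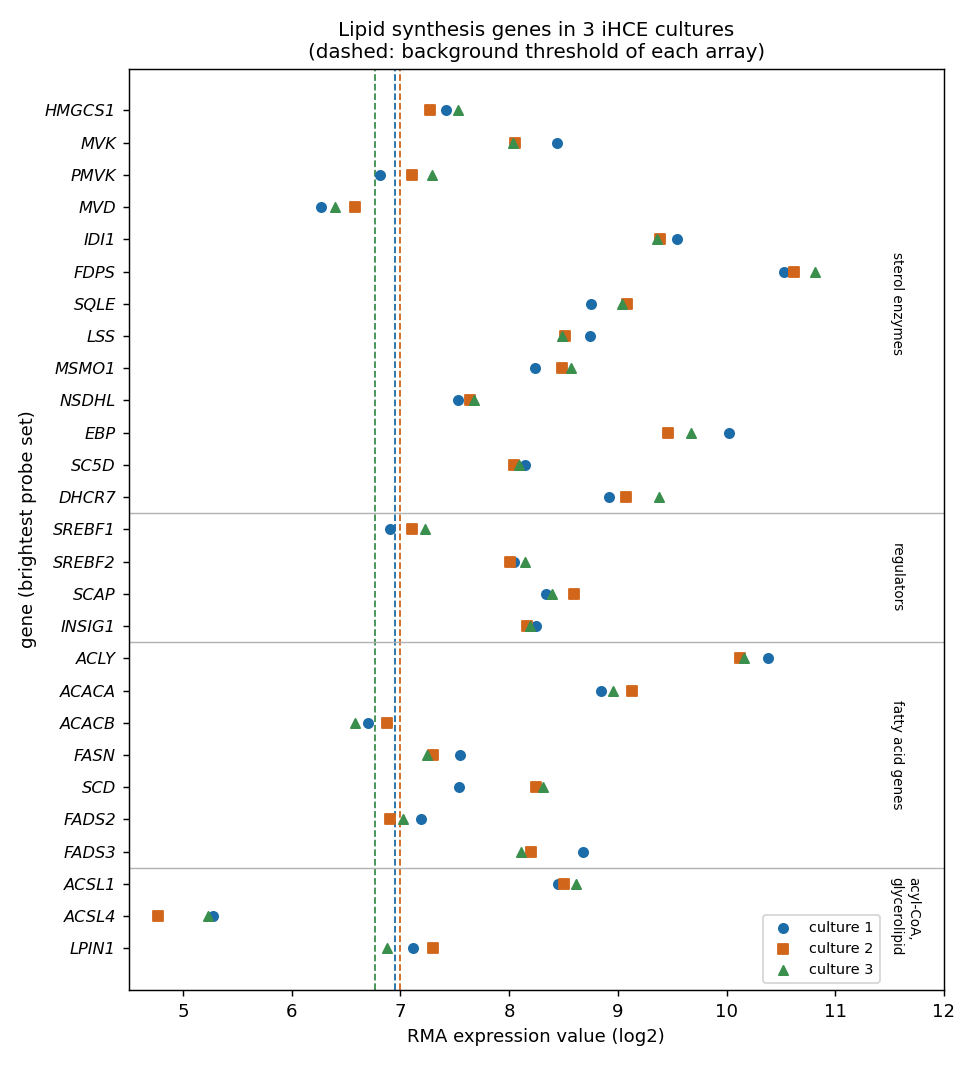
RMA expression values (log2, horizontal axis) of the brightest probe set of each of the 27 measured synthesis genes, 1 row per gene, grouped by role. Blue circles, orange squares and green triangles are cultures 1, 2 and 3, and dashed lines in the same colours are the background thresholds of the arrays, at 6.95, 7.00 and 6.76. The symbols of *MVD*, *ACACB* and *ACSL4* each lie left of the line of their own colour, and those of *PMVK*, *SREBF1* and *FADS2* straddle the lines.

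The enzymes that make mevalonate and turn it into isoprenoid units were read at both sides of the threshold. *HMGCS1*, the cytosolic synthase that makes HMG-CoA, had values of 7.42, 7.27 and 7.53 in cultures 1, 2 and 3 at its brightest probe set, a mean 0.50 ± 0.13 log2 units over the thresholds (limma, moderated SE, adjusted p = 0.000448). These values lay close together and close to background. *MVK*, the kinase that phosphorylates mevalonate, read 8.44, 8.06 and 8.03, with culture 1 above both others. *PMVK*, the kinase of the following step, read 6.81, 7.10 and 7.29 and so passed the threshold in cultures 2 and 3 but not in culture 1. *MVD*, the decarboxylase that yields isopentenyl diphosphate, read 6.27, 6.58 and 6.40, below the threshold on every array. *IDI1*, which isomerises that product, was well above background at 9.54, 9.39 and 9.36, and its other probe set read 9.27, 9.29 and 9.26. Both *IDI1* probe sets carry the suffix _x_at, which marks probes that may bind transcripts of other genes, as _s_at marks probes shared by several transcripts. *FDPS*, which joins the units into farnesyl diphosphate, read 10.53, 10.62 and 10.81, a mean of 10.65 ± 0.14 (SD, n = 3).

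The 7 measured enzymes from squalene to cholesterol were above background at their brightest probe sets. *LSS* and *SC5D* lost the call with the mean over probe sets, *SC5D* also without _x_at and _s_at probe sets, and *NSDHL* with the panel median plus 3 scaled MADs. *SQLE*, the squalene epoxidase and a rate-limiting step of the late pathway, read 8.75, 9.08 and 9.04 in cultures 1, 2 and 3. *LSS*, which closes the ring to lanosterol, read 8.74, 8.52 and 8.49. Culture 1 was the lowest for *SQLE* and the highest for *LSS* at these probe sets, and a second *SQLE* probe set above background was highest in culture 1 (7.35, 7.24 and 7.19). *MSMO1*, a sterol methyl oxidase, read 8.24, 8.49 and 8.57, and *NSDHL*, the dehydrogenase that works with it, 7.53, 7.64 and 7.68, with culture 1 lowest in both. *EBP*, the sterol isomerase, read 10.02, 9.46 and 9.68, the widest range of any sterol enzyme above background. *SC5D*, the sterol desaturase, varied least among them, at 8.14, 8.04 and 8.09 (SD 0.05). *DHCR7*, the reductase that makes cholesterol from its dehydro precursor, read 8.92, 9.08 and 9.38, with culture 3 highest at both of its probe sets.

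Of the genes of the SREBP machinery, *SREBF2*, *SCAP* and *INSIG1* were above background, with SDs of 0.04 to 0.14, and *SREBF1* was near the threshold. *SREBF2*, which encodes SREBP-2, had values of 8.04, 8.01 and 8.15 in cultures 1, 2 and 3 (mean 8.07 ± 0.07, SD, n = 3). *SREBF1*, which encodes SREBP-1a and SREBP-1c, read 6.90, 7.11 and 7.22, below the threshold in culture 1 and above it in cultures 2 and 3 (limma, mean 0.17 ± 0.13 over the thresholds, moderated SE, adjusted p = 0.247). It has 1 probe set, which gives no reading of the isoforms apart. *SCAP*, the escort that carries SREBPs to the Golgi, read 8.34, 8.60 and 8.40. *INSIG1*, the retention protein that is itself a target of SREBPs, read 8.25, 8.17 and 8.19, with an SD of 0.04, the smallest of the 21 genes above background. Its 2 other probe sets read 6.78, 7.06 and 7.05, and 6.75, 6.79 and 6.75, neither above background on all arrays.

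*ACLY*, *ACACA*, *FASN* and *SCD* were above background, and the mitochondrial carboxylase *ACACB* was not. *FASN* lost its call with the mean over probe sets, and *FASN* and *SCD* with a threshold at the panel median plus 3 scaled median absolute deviations (MADs). *ACLY*, the ATP citrate lyase that supplies cytosolic acetyl-CoA, had a brightest probe set at 10.38, 10.12 and 10.16 in cultures 1, 2 and 3. *ACACA*, the cytosolic carboxylase that makes malonyl-CoA, read 8.85, 9.13 and 8.96. *ACACB*, the carboxylase at the mitochondrial surface, whose product restrains fatty acid oxidation, read 6.70, 6.88 and 6.58 at the brightest of its 4 probe sets, and 0 of the 4 were above background. *FASN*, the fatty acid synthase, read 7.55, 7.30 and 7.24, a mean 0.46 ± 0.13 over the thresholds (limma, moderated SE, adjusted p = 0.00104). *SCD*, the desaturase that makes oleate, read 7.54, 8.25 and 8.31, with culture 1 below both others by more than 0.5.

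Of the desaturases of polyunsaturated fatty acids, *FADS3* was above background and *FADS2* was not. *FADS3* read 8.68, 8.21 and 8.11 at its brighter probe set and 8.44, 8.04 and 7.96 at the other, with culture 1 highest at both. Its substrate range is less settled than that of the other family members. *FADS2*, the delta-6 desaturase that opens the route to long polyunsaturated fatty acids, read 7.19, 6.91 and 7.02 at its only probe set, above the threshold in cultures 1 and 3 and below it in culture 2 (limma adjusted p = 0.388). The *FADS* genes neighbour each other on the same chromosome arm.

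Among the genes that activate or store fatty acids, *ACSL1* was above background and *ACSL4* was far below it. *ACSL1*, a long-chain acyl-CoA synthetase, read 8.45, 8.51 and 8.62 in cultures 1, 2 and 3, and 7.34, 7.48 and 7.35 at its other probe set. *ACSL4*, a synthetase with a preference for arachidonate, read 5.27, 4.77 and 5.23 at its only probe set, on average 1.81 log2 units under the thresholds (mean difference -1.81). *LPIN1*, a phosphatidate phosphatase of glycerolipid synthesis, read 7.11, 7.30 and 6.87, above background by 0.11 log2 units on the array where the margin was smallest, and it was the gene that limma did not call (adjusted p = 0.184). Without culture 2 it was not above background either, since another of its probe sets was then the brightest.

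Most genes of the wider pathway were also above background, with the lowest share in the LXR and efflux list. Of 83 measured genes in 7 further lists (112 genes listed), 58 were above background (69.9%, against 47.8% of all genes). The shares nearest that of all genes were those of sterol uptake and transport (57.1%) and sterol regulation (63.6%). All 6 measured genes of other sterol synthesis steps, of 12 listed, were above background. Among them were *LBR* (9.96 ± 0.28, SD, n = 3), a sterol reductase of the nuclear envelope, *ACAT2* (9.92 ± 0.27), a thiolase, and *GGPS1* (9.05 ± 0.18), which makes geranylgeranyl diphosphate. Of 11 genes of sterol regulation 7 were above background, among them *MBTPS1* (9.80 ± 0.15), the site-1 protease that cleaves SREBPs, *ERLIN1* and *RNF139*. *MBTPS2*, the site-2 protease, was not, at 6.45, 6.13 and 6.08 in cultures 1, 2 and 3, nor were *ERLIN2* and *NFYA*, which each passed on 2 of 3 arrays. *NFYB* (8.55 ± 0.27) and *NFYC* (7.36 ± 0.14), which with *NFYA* encode the factor NF-Y, were above background. Of 7 genes of sterol uptake and transport 4 were above background. Among them were the lysosomal cholesterol carriers *NPC2* (11.47 ± 0.13) and *NPC1* (9.91 ± 0.14) and the lysosomal lipase *LIPA* (8.88 ± 0.13). *SOAT1* and *VLDLR* were not above background, nor was *SCARB1*, which passed on 2 of 3 arrays. In the LXR and efflux list 2 of 7 were above background, *APOE* (7.78 ± 0.26) and *NR1H3* (7.14 ± 0.17). *NR1H3* passed narrowly, at 6.96 in culture 1 against a threshold of 6.95. The count of this list was 3 with the 90th percentile of the panel, 1 with limma and 0 with the panel median plus 3 scaled MADs. *MYLIP* and *LPCAT3* each passed on 2 of 3 arrays. The sterol exporters *ABCA1* (5.37 ± 0.18) and *ABCG1* (5.89 ± 0.23) were not above background, nor was *ABCA2* (5.77 ± 0.11).

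Most neighbouring genes of fatty acid metabolism were above background too, at shares of 68.8% to 82.6% by list, against 47.8% of all genes. Of 16 other genes of fatty acid synthesis 11 were above background, with the acyl-CoA binding protein gene *DBI* (10.89 ± 0.13, SD, n = 3), the ketoacyl reductase gene *HSD17B12* (10.64 ± 0.01) and the elongase gene *ELOVL5* (10.56 ± 0.04) among them. The elongase genes *ELOVL2* and *ELOVL4* were not above it (4.89 ± 0.08 and 5.02 ± 0.25), nor was *HACD3*, which passed on 2 of 3 arrays. Of 13 other genes of acyl-CoA activation and glycerolipid synthesis 9 were above background, among them *SLC27A2*, *AGPAT2* and *AGPAT1*. *ACSL6* and *AGPAT4* were not, nor was *ACSL5*, which passed on 2 of 3 arrays. Of 23 genes of fatty acid oxidation 19 were above background, among them *ECHS1* (11.17 ± 0.14), *HADHB* and *ECI1*, and not *ACADL*, *EHHADH* or *ETFDH*. Lists of tissues rich in lipid genes gave 2 of 10 adipocyte markers above background, *LIPE* (7.22 ± 0.35) and *PPARG* (7.00 ± 0.06), with *ADIPOQ* at 3.90 ± 0.09 and *FABP4* at 4.53 ± 0.05. *PPARG* passed narrowly, at 6.99 in culture 1 against a threshold of 6.95. *LPL* passed on 2 of 3 arrays, at 7.19, 6.98 and 7.92 in cultures 1, 2 and 3. Of the hepatocyte markers 0 of 10 were above background, with *ALB* at 4.33 ± 0.31. *SERPINA1* passed on 2 of 3 arrays, at 6.42, 7.05 and 7.09.

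**Figure D2:**
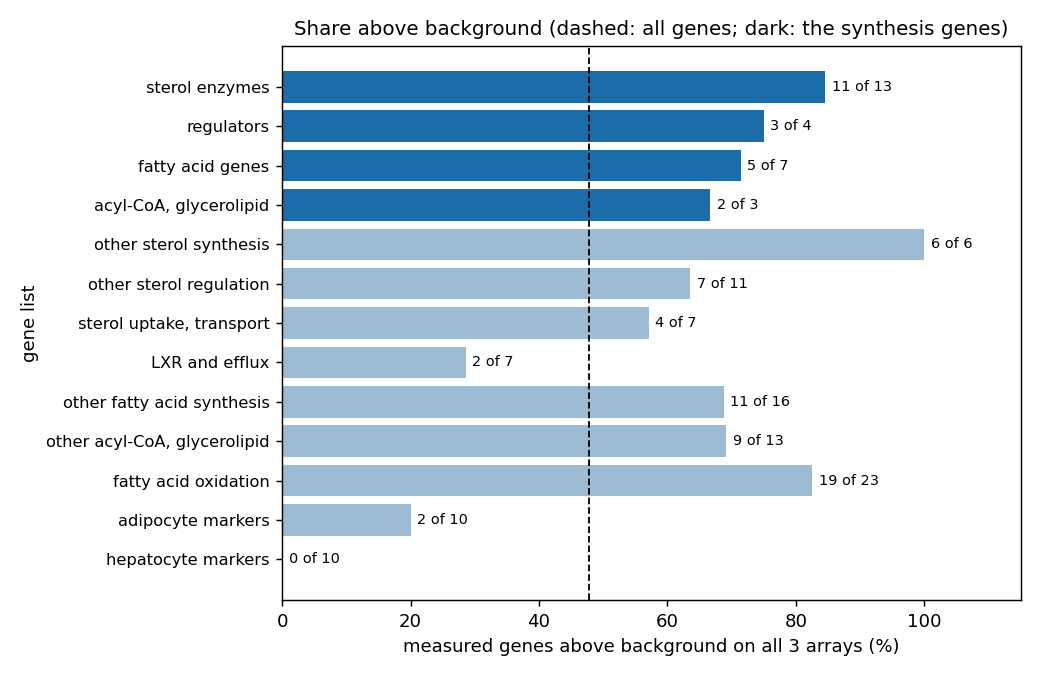
Share of the measured genes of each list that were above background on all 3 arrays, in percent (horizontal axis), with the count beside each bar. Dark bars are the 4 groups of synthesis genes, pale bars the 7 other pathway lists and the adipocyte and hepatocyte markers, and the dashed line is the share of all genes (47.8%). The LXR and efflux genes (2 of 7) are the pathway list left of the line, with both marker lists.

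Different probe sets of the same gene often disagreed. Of the 19 synthesis genes with several probe sets, 10 had some above background and some not, 8 had all above it and *ACACB* had none. The share of such split calls over all genes was not counted, so they are not shown to be particular to the synthesis genes. *SQLE* showed the widest gap, with probe-set means of 8.96, 7.26 and 4.91, and *LSS* read 8.58 at one and 5.01 and 5.23 at the others. *HMGCS1* read 7.41 at one and 4.77 at the other. The gene calls above rest on the brightest reading. With the mean over probe sets read against the same thresholds, *HMGCS1*, *SQLE*, *LSS*, *SC5D*, *FASN* and *LPIN1* were no longer above background, which left 15 of 27 genes (55.6%), against 39.8% of all genes. With the panel also read at the mean over its probe sets, the thresholds were lower (6.78, 6.65 and 6.57 in cultures 1, 2 and 3). *SQLE* then kept its call, the 5 others lost it, and *PMVK*, *SREBF1* and *FADS2*, whose single readings were unchanged, were above the lower thresholds.

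**Figure D3:**
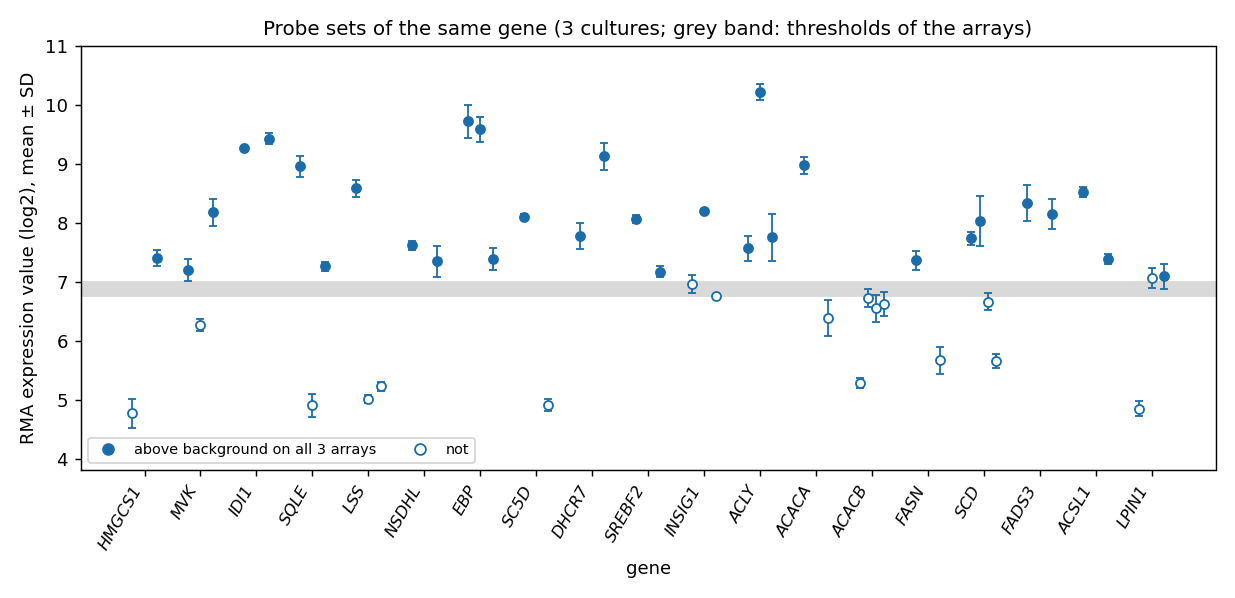
RMA expression values (log2, vertical axis) of every probe set of the 19 synthesis genes with several probe sets, as mean ± SD over the 3 cultures. Filled circles were above background on all 3 arrays and open circles were not, and the grey band spans the thresholds of the arrays, 6.76 to 7.00. Filled and open circles stand over the same name for 10 genes, with the widest gap for *SQLE*.

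The promoters of these genes held CCAAT boxes more often than promoters at large. In windows of 250 bases before to 50 after each start (RefSeq, GRCh38.p14), 27 of the 30 genes matched, with 43 windows, and *FDFT1*, *SQLE* and *FASN* did not. The letters CCAAT stood on either strand in 25 of the 43 windows (58.1%), against 34.7% of windows of all coding genes and 34.6% of all windows. At least 2 matches stood in 37.2% of the windows, against 11.4% for coding genes. The sterol enzymes held a match in 13 of 17 windows, covering 11 of 12 genes, with *PMVK* as the exception, the fatty acid genes in 8 of 12, the regulators in 2 of 4 and the acyl-CoA and glycerolipid genes in 2 of 10. Expression on these arrays hardly separated coding genes in this respect, with a match in 35.6% of windows of genes above background and 34.5% of windows of the others. The GC box GGGCGG, a site of SP1, stood on either strand in 79.1% of the windows, against 56.3% for coding genes and 67.7% for coding genes above background. The E-box CACGTG stood in 5 of 43 windows (11.6%, against 8.34% for coding genes) and the TATA box TATAAA, searched on both strands, in 3 (6.98%, against 9.47%). The letters TCACNCCAC, a core of the sterol response element, stood on either strand in 2 windows (4.65%, against 1.13% for coding genes), of *SREBF2* and *ACSL1*. The CCAAT and GC box letters do not contain each other, windows of 1 gene can overlap, and the shares were not tested. A match is a match of letters and not a shown binding site.

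These 8 promoter stretches are shown as examples of the shared letters, and none is from an acyl-CoA or glycerolipid gene: the regulators *SREBF2* and *INSIG1*, *HMGCS1* and *MVD* from the mevalonate steps, *FDPS* and *MSMO1* further along, and *ACLY* and *SCD* from the fatty acid route. Each is 180 bases from before the start site, written 5′ to 3′ along the gene, with CCAAT or its reverse complement in capitals, and in *SREBF2* also the sterol response element.
SREBF2 (chr22:41832925-41833104, plus strand): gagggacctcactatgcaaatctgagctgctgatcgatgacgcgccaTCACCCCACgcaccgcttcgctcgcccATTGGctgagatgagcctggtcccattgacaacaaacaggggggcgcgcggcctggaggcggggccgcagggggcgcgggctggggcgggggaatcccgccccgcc
INSIG1 (chr7:155297698-155297877, plus strand): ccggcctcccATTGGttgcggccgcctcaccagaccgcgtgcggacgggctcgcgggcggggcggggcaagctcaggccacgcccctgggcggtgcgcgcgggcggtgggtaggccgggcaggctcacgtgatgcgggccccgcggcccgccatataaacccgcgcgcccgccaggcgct
HMGCS1 (chr5:43313413-43313592, minus strand): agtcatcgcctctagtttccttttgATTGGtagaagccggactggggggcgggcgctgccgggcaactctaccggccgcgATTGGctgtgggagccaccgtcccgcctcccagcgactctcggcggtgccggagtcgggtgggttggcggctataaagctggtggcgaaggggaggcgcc
MVD (chr16:88663092-88663271, minus strand): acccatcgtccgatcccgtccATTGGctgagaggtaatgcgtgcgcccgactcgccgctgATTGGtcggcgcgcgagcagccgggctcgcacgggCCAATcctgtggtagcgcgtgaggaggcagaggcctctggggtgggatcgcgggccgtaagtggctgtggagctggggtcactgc
FDPS (chr1:155308680-155308859, plus strand): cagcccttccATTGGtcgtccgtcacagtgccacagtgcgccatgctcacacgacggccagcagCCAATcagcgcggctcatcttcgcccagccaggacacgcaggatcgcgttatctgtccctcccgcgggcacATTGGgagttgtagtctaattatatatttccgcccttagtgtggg
MSMO1 (chr4:165327474-165327653, plus strand): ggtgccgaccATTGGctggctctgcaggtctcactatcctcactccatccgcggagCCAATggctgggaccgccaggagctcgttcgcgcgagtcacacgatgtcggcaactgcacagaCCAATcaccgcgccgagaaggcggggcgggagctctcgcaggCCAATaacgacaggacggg
ACLY (chr17:41919023-41919202, minus strand): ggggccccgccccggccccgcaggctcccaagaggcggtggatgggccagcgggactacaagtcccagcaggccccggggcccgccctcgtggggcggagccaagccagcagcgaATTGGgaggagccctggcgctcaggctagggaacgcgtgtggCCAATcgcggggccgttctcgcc
SCD (chr10:100346994-100347173, plus strand): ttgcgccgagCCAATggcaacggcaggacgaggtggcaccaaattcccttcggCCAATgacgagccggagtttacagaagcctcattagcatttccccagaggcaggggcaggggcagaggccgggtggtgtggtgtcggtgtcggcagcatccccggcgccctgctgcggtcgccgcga

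The stretches of *MVD* and *FDPS* hold 3 matches each, yet their readings lay on opposite sides of the threshold, *MVD* at 6.42 ± 0.16 and *FDPS* at 10.65 ± 0.14 (SD, n = 3). Among the synthesis genes above background 17 of 19 with a promoter window had a CCAAT match in any window, and among those not above it 3 of 6. Over coding genes, a match in any window was held by 42.1% of genes, by 2167 of 4818 above background and by 2007 of 4620 not above it.

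The synthesis genes did not shift together between the cultures. Among the 21 genes above background, culture 1 was lowest in 9 and highest in 9, against 39.4% lowest and 39.7% highest for all genes above background. Culture 2 was lowest in 6 and highest in 4 (32.3% and 28.8% for all such genes), and culture 3 lowest in 6 and highest in 8 (28.2% and 31.5%). Culture 1 minus the mean of both others had a median of 0.02 log2 units over the 21 genes, with single genes from -0.74 (*SCD*) to 0.53 (*FADS3*), and of 0.00 over all genes above background. It was higher in culture 1 for 6 of the 11 sterol enzymes (median difference 0.02) and for 3 of the 5 fatty acid genes (median difference 0.24, which is the value of *ACLY*). With the mean over probe sets the median of the fatty acid genes turned to -0.070 and that of the sterol enzymes was -0.14. The median SD was 0.142 for the 21 genes and 0.146 for all genes above background. Without culture 1, with genes called anew, it was 0.0617 for 23 synthesis genes and 0.0891 for 5922 genes. These are SDs of 2 values and over other sets of genes, so they are not directly comparable with the first pair. A range over 0.5 log2 units was seen in 3 of the 21 (14.3%), against 17% of all genes above background. These 3 were *EBP*, *SCD* and *FADS3*. Culture 1 was the farthest from the mean of both others in each of these 3. In *EBP* culture 2 was nearly as far on the other side, with differences of 0.46 for culture 1 and -0.39 for culture 2. With 1 array per culture no culture can be tested against another.

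**Figure D4:**
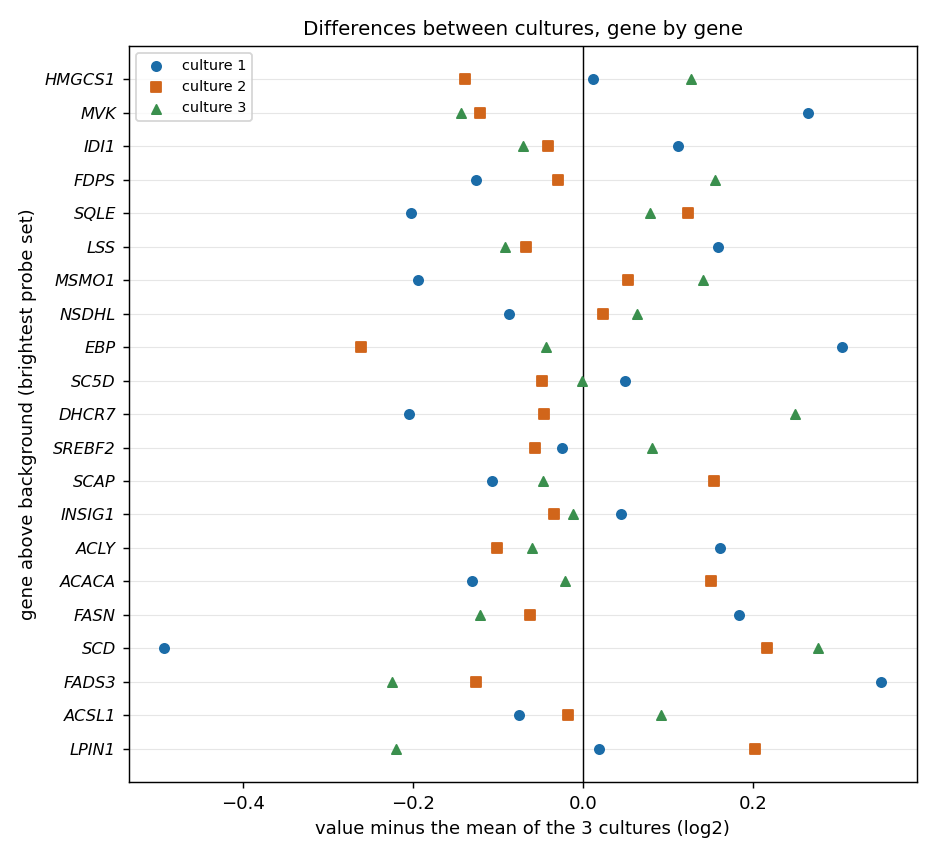
Value of each culture minus the mean of the 3 cultures (log2, horizontal axis) for the 21 synthesis genes above background, at the brightest probe set, 1 row per gene. Blue circles, orange squares and green triangles are cultures 1, 2 and 3. The blue circles lie on both sides of 0, farthest left in *SCD* and farthest right in *FADS3*.

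Probe sets of the same gene did not always place culture 1 on the same side of the others. Of the 11 synthesis genes with several probe sets above background, 6 had culture 1 on the same side of the mean of both others at each of these probe sets. Culture 1 was above that mean at all 3 probe sets of *EBP* and at both of *FADS3* and of *MVK*, and below it at both of *DHCR7*, *SREBF2* and *ACSL1*. This does not make the whole pattern alike: culture 3 was highest at the brightest probe set of *SREBF2* (8.04, 8.01 and 8.15 in cultures 1, 2 and 3) and lowest at its other (7.15, 7.28 and 7.09), and the highest culture also differed between the probe sets of *ACSL1*. In the other 5 (*IDI1*, *SQLE*, *NSDHL*, *ACLY* and *SCD*) the side differed between probe sets (45.5%), against 44.3% of the 1339 genes with several probe sets above background. The brightest *ACLY* probe set was higher in culture 1, at 10.38, 10.12 and 10.16 in cultures 1, 2 and 3, while its others read 7.29, 8.03 and 7.94, and 7.32, 7.66 and 7.72, both lower in culture 1. The low reading of *SCD* in culture 1 came from 1 probe set (7.54, 8.25 and 8.31), and its other probe set above background read 7.79, 7.61 and 7.82. A single direction between cultures for *ACLY* or *SCD* is therefore not given by these arrays.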

How the data were processed

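Total RNA of 3 iHCE cultures was hybridized to HG-U133A arrays. The authors deposited log2 values made by RMA in R 2.8.0, per the submitters' processing notes: background correction, normalization between arrays and a summary per probe set. RMA removes differences in total brightness and compresses low values. The methods describe a run with corneal tissue arrays on probes regrouped by gene, while the deposited rows are the manufacturer's probe sets, so it is unclear whether the tissue arrays entered this normalization. All 3 columns were used as deposited. An array has no read depth.

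Probe sets were named by the platform annotation, with symbols updated through Entrez numbers in RefSeq (GRCh38.p14, names and promoters only). Of 22283 probe sets 19071 had 1 symbol, 1043 several and 2169 were not listed, and 12 symbols were not found in RefSeq. A gene was read at its brightest probe set (11963 genes). The background panel held 72 genes, 55 of them measured, of which 3 were called above background. All 30 synthesis genes are named. Of each other pathway list, the 3 genes of highest margin and up to 3 not above background in alphabetical order are named, and of the marker lists those above background and the defining ones. Also named are the genes of these lists that passed on 2 of 3 arrays, and *NFYB* and *NFYC*. The members and lists were chosen with earlier results of these data known.

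The alternatives were other thresholds, the mean over probe sets, leaving out _x_at and _s_at probe sets, quantile normalization, leaving out each replicate, and limma 3.58.1 (R 4.3.3; adjusted p under 0.05 after Benjamini-Hochberg over all probe sets). Other steps used Python 3.11.15 with pandas 2.3.3. The calling rule, limma and quantile normalization were tested on simulated data, with a single probe set per gene and genes lifted well above the threshold. Genes lifted to near the threshold, the choice among probe sets, the differences between cultures and the promoter search were not tested in this way.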

Additional observations from a re-analysis of the deposited data

How the results depend on the processing

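No paired analysis was possible because the series holds 1 group. The 21 synthesis genes above background (77.8%, against 47.8% of all genes) were 23 with the 90th percentile of the panel (85.2%, against 51.7%). With the panel median plus 3 scaled MADs they were 16, without *HMGCS1*, *NSDHL*, *FASN*, *SCD* and *LPIN1* (59.3%, against 32.3%). The mean over probe sets, for genes and panel alike, gave 19 (70.4%, against 44.5%). Once _x_at and _s_at probe sets were dropped, 16 of the 18 still measured were above background (88.9%, against 38.9%). Quantile normalization gave 21 (77.8%, against 47.8%) and limma 20 (74.1%, against 46.4%). Without 1 of the replicates the count was 21 to 23. With the highest panel value, set by *MBP*, 4 remained (*IDI1*, *FDPS*, *EBP* and *ACLY*), as did 6 of the 34 probe sets, 3 of the 11 sterol enzymes, 0 of the 3 regulators, 1 of the 5 fatty acid genes, 0 of the 2 genes of acyl-CoA and glycerolipids, 19 of the 58 other pathway genes and 14.7% of all genes, about the share of the synthesis genes (14.8%). Leaving *MBP* out of the panel, a choice made after the data were seen, gave 19 synthesis genes (70.4%, against 40% of all genes). The mean over probe sets against unchanged thresholds, also chosen after the data were seen, gave 15 (55.6%, against 39.8% of all genes). Among these were 7 sterol enzymes and 1 gene of acyl-CoA and glycerolipids. With the panel median plus 3 scaled MADs the count was 19 probe sets, 3 fatty acid genes, 1 gene of acyl-CoA and glycerolipids and 38 other pathway genes. Without _x_at and _s_at probe sets it was 18 probe sets and 2 fatty acid genes, fewer being measured. The acyl-CoA and glycerolipid count was 1 with the mean over probe sets, with limma, and without *MBP* in the panel, and 1 to 2 without 1 replicate, through *LPIN1*. Leaving out a replicate gave 34 to 38 probe sets, 11 to 12 sterol enzymes, 3 to 4 regulators, 5 to 6 fatty acid genes, 58 to 62 other pathway genes and 47.9% to 49.5% of all genes.

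The median SD of 0.142 was 0.0617 to 0.160 when a replicate was left out, lowest without culture 1, where that of all genes was 0.0891. With a replicate left out these are SDs of 2 values over genes called anew, so they are not directly comparable with 0.142. With the mean over probe sets, the median difference of culture 1 from the others was -0.070 for the fatty acid genes, a turn of direction from 0.24, and -0.14 for the sterol enzymes, against 0.02 at the brightest probe set, and 7 genes were highest in culture 2 and 3 lowest in culture 3. The cause was not tested. With the mean over probe sets, the level moved by more than its SD in 17 of the 19 genes with several probe sets. The other 8 genes have 1 probe set, so their level could not move. Without _x_at and _s_at probe sets the level of 2 of 18 genes moved by more than its SD. The level moved by less in all 27 with quantile normalization. It also moved by less in all 27 without replicate 1, 2 or 3, which says nothing about the cultures. Leaving out 1 of 3 values cannot move the mean of a probe set by its SD. Readings within about the thresholds carry little order, which limits *PMVK*, *SREBF1*, *FADS2*, *LPIN1* and *ACACB*.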
